A study of Zea mays with 12 samples.

Results

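Maize embryos of the inbred lines B73 and Mo17 and of their reciprocal hybrids were compared. By the rule below, 38 of 17621 probe sets (0.216%) had hybrid means nearer to the higher inbred than to the inbreds' mean in both crosses. On this array each transcript is read by several short probes, and the signal of a probe set combines them into 1 value. The 38 were chosen from the signals themselves. After every array was scaled to 1 common median, which lay within the range of the array medians before scaling, all 12 arrays had to lie at 50 or more, all arrays of 1 inbred above all of the other, and the inbred means had to differ by a ratio of at least 1.5. The position of each hybrid mean, written d/a, then had to be between 0.5 and 1.5 in both crosses. This measure is the distance of the hybrid from the mean of both inbreds (the mid-parent), divided by the distance from the mid-parent to either inbred. On the linear scale a value of 1 means the level of the higher inbred, -1 that of the lower inbred and 0 the mid-parent.

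Embryo RNA was hybridised to 12 Affymetrix maize arrays of a single colour, with 3 biological replicates for each of 4 groups: inbred B73, inbred Mo17, B73xMo17 and Mo17xB73. A cross is written here with the seed parent first, the usual convention, which the labels do not spell out. All embryos were taken 19 days after pollination from untreated field-grown plants, and per the labels the replicates with the same number shared a collection date while the 3 numbers stand for different dates. The number of embryos behind each RNA sample is not given in the sources used here.

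When each allele of a gene keeps its own output in a hybrid, the hybrid lies at the mean of the inbreds, which is called additive expression. A hybrid that matches its higher parent is said to show high-parent dominance. This can arise when a factor carried by 1 parent acts on both alleles. The embryo at this age is a diploid organ with 1 genome from each parent, whereas the neighbouring endosperm carries an additional maternal genome. In whole embryos fewer cells of a type and less RNA per cell cannot be told apart.

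Before scaling, array medians ran from 192 to 314. After it, the 75th percentile of the signal was between 773 and 834 on the inbred arrays and between 736 and 794 on the hybrid arrays, so bright probe sets stood slightly lower in the hybrids on this scale. The labelled tissue was checked with 6 embryo genes, 5 of them on the array. Their summed signal was 30888 to 33739 in B73, 32693 to 44488 in Mo17, 34486 to 36752 in B73xMo17 and 41667 to 45645 in Mo17xB73. Endosperm transcripts were present as well, by a storage list of 6 genes, zeins and their regulator o2. Their sum was 35226 to 42090 in B73, 23233 to 29567 in Mo17, 36938 to 41216 in B73xMo17 and 29078 to 35243 in Mo17xB73. Most of the spread between groups came from dzs18, a zein gene, with means of 12073, 87.7, 12192 and 2868 in the same order. Without it, a choice made after its values were seen, the sums overlapped between all groups, at 25162 to 29101, 23159 to 29473, 25844 to 28419 and 25729 to 32819. The sum for 4 measured probe sets of the endosperm transfer layer was 1808 to 2129 in B73, 3627 to 5680 in Mo17, 2896 to 4203 in B73xMo17 and 4326 to 6564 in Mo17xB73. The members hold none of these marker genes, and the part of endosperm RNA in their levels was not tested.

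B73 was the higher inbred at 24 members and Mo17 at 14. The inbred arrays did not overlap at any member, which the choice demands and which held for 46.7% of all probe sets. The scale weighs on the number: quantile normalization, which gives all arrays 1 shared distribution, chose 79 probe sets, 32 of the 38 among them. The inbred ratio ran from 1.56 to 10.3 with a median of 1.99, and 19 members had a ratio of 2 or more. Mean signals over the 12 arrays ran from 108 to 7898, and 21 members were under 300. The median brightness was 248, against 420 among the 2381 probe sets that met the criteria on the inbreds alone. The lower inbred's mean was under 100 at 12 members. Of the 38 probe sets 3 have a gene in the annotation used, and 35 are unnamed here. Those named were gpc1, which encodes cytosolic glyceraldehyde-3-phosphate dehydrogenase, a glycolytic enzyme, tub6, which encodes a beta-tubulin, a building block of microtubules, and x34.3. Of 17 gene lists, which covered storage, endosperm, stress, metabolic, chromatin and regulatory genes, 16 held no member. The list of glycolysis and fermentation held gpc1, 1 of its 24 probe sets. Members were 0.216% of all probe sets and the longest list held 75, so an empty list says little about the members.

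The member with the widest inbred difference was a probe set of tub6. Its signals were 4342, 4957 and 5784 in B73 and 648, 330.4 and 492 in Mo17. The hybrids measured 4066, 4211 and 4046 in B73xMo17 and 3829, 4372 and 4591 in Mo17xB73. All 6 hybrid arrays stood far above those of Mo17, and the upper ones reached into the range of B73. The mean was 5028 ± 724 (SD, n = 3) in B73 and 490.1 ± 159 (SD, n = 3) in Mo17, a ratio of 10.3, and d/a was 0.59 in B73xMo17 and 0.66 in Mo17xB73.

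The widest difference toward Mo17 was that of a gpc1 probe set. It gave 65.7, 73.7 and 61.3 in B73, close to the minimum of 50, and 466, 329 and 444 in Mo17. The hybrid arrays read 377, 458 and 393 in B73xMo17 and 397, 415 and 383 in Mo17xB73. Every hybrid array lay within the range of the Mo17 arrays. The inbred ratio was 6.17, and d/a was 0.98 in B73xMo17 and 0.92 in Mo17xB73.

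The probe set of x34.3 showed the same order with more scatter. Signals were 90.0, 119 and 161 in B73, 217, 385 and 189 in Mo17, 291, 169 and 273 in B73xMo17, and 241, 235 and 223 in Mo17xB73. A single array of B73xMo17 fell to near the top of the B73 range while the other two sat among those of Mo17. The position of the B73xMo17 mean, 0.73, had an SD of 0.94 over its 3 arrays, whereas that of Mo17xB73, 0.56, had an SD of 0.13.

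**Figure D1:**
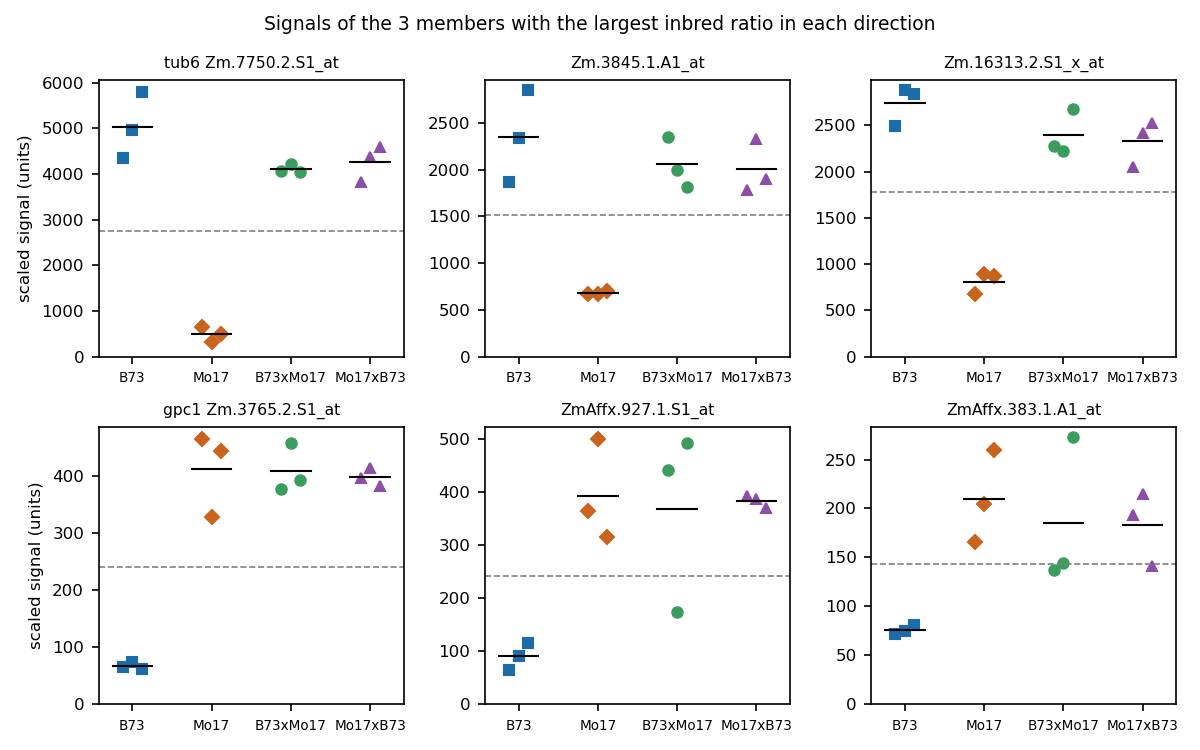
Scaled signals (vertical axis, from 0) of the 3 members with the largest inbred ratio in each direction, by group (horizontal axis). Points are arrays, 3 in each group, black bars are group means, and the dashed line is the mid-parent. In tub6 and gpc1 all 6 hybrid arrays lie above the mid-parent, while ZmAffx.927.1.S1_at has a B73xMo17 array at 173, below it.

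Other members with large inbred differences are unnamed here. Zm.3845.1.A1_at gave 1866, 2339.9 and 2848 in B73 and 669, 665 and 706 in Mo17, with 2352, 1998 and 1813 in B73xMo17 and 1785, 2321 and 1902 in Mo17xB73. Its d/a was 0.64 and 0.58, for B73xMo17 and Mo17xB73 in this order. Zm.16313.2.S1_x_at had an inbred ratio of 3.38 and positions of 0.64 and 0.58. The hybrids of both probe sets lay between the mid-parent and the B73 mean on nearly all arrays. Zm.2107.1.A1_at (ratio 2.96) and Zm.188.1.S1_at (2.92) completed the 5 largest toward B73. The latter was 1 of 2 members whose 6 hybrid arrays all remained below the higher inbred's arrays, at 336 to 450.3 against 463 to 489 in B73.

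Toward Mo17, ZmAffx.927.1.S1_at followed gpc1 with a ratio of 4.39. It gave 64.3, 89.8 and 115 in B73, 365, 501 and 315 in Mo17, 441, 173 and 492 in B73xMo17, and 392, 387 and 369 in Mo17xB73. The 3 arrays of Mo17xB73 were close together, but those of B73xMo17 fell on both sides of the mid-parent. ZmAffx.383.1.A1_at (ratio 2.78) also had 2 B73xMo17 arrays, at 137 and 144, near its mid-parent and the other at 273. Zm.17620.1.S1_at had a ratio of 2.58 and positions of 0.60 and 0.53. Zm.1356.2.S1_a_at was tighter: 927, 818 and 1001 in B73, 2375, 2162 and 2263 in Mo17, 1958, 1919.8 and 2092 in B73xMo17, and 2076, 1894 and 2151 in Mo17xB73. Its hybrids formed a band just below the Mo17 arrays, with positions of 0.59 and 0.67.

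Bright members were few, and 10 had a mean signal over 1000. The brightest, named here after its values were seen, was Zm.2519.1.A1_at, with 8666, 9611 and 9937 in B73, 4825, 4624 and 5274 in Mo17, 8440.4, 8572 and 8352 in B73xMo17, and 8699, 9952 and 7823 in Mo17xB73. Its hybrid arrays lay well above those of Mo17 and 4 of the 6 lay below the lowest of B73, with positions of 0.58 and 0.74. Zm.3975.1.S1_at, higher in Mo17, gave 3029, 3392 and 4106 in B73, 7181, 8175 and 6108 in Mo17, 7084, 4864 and 6787 in B73xMo17, and 6903, 7462 and 7269 in Mo17xB73. A single B73xMo17 array, replicate 2, stood below the mid-parent while the other 5 hybrid arrays were within the Mo17 range.

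Median d/a over the 38 was 0.64 in B73xMo17 and 0.69 in Mo17xB73. Both crosses lay below 0.75 at 15 members, and between 0.9 and 1.1 at 3. The mean of at least 1 cross exceeded that of the higher inbred at 9 members, and both did so at 0. A further 21 probe sets with both crosses at 0.5 or more had a cross above 1.5 and were left out by the upper limit, 3 of them with a gene name, named here after their values were seen, and all 3 of these higher in Mo17. These were glb2, an embryo globulin, at 0.89 in B73xMo17 and 1.53 in Mo17xB73, betl4, a transfer layer gene, at 0.74 and 1.74, and ESR1, a gene of the endosperm around the embryo, at 1.23 and 1.82. At the lower limit, the members nearest to it were Zm.3975.1.S1_at, with positions of 0.50 and 1.03, and Zm.1292.1.S1_at, with 0.51 and 0.67. The probe sets just outside it were Zm.10180.1.S1_at, with 0.67 and 0.49, and Zm.13448.1.A1_at, with 0.63 and 0.49.

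The 6 hybrid arrays lay above all 3 arrays of the lower inbred at 38 of 38 members, against 16.2% of all probe sets and 63.1% of those that met the inbred criteria. They lay below all 3 arrays of the higher inbred at 2 of 38 members, against 28.5% of all and 71.1% of those that met the inbred criteria. The choice of members fixes both counts to a large degree, so they are given as a description. Array by array, 214 of the 228 hybrid values of members stood above the mid-parent, 157 at a position of 0.5 or more, and 58 above the mean of the higher inbred. All 6 hybrid arrays stood above the mid-parent at 26 members. The lowest median position was that of B73xMo17 replicate 2, at 0.53 with 19 of 38 members at 0.5 or more. On the other 5 hybrid arrays the median position was 0.68 to 0.79.

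**Figure D2:**
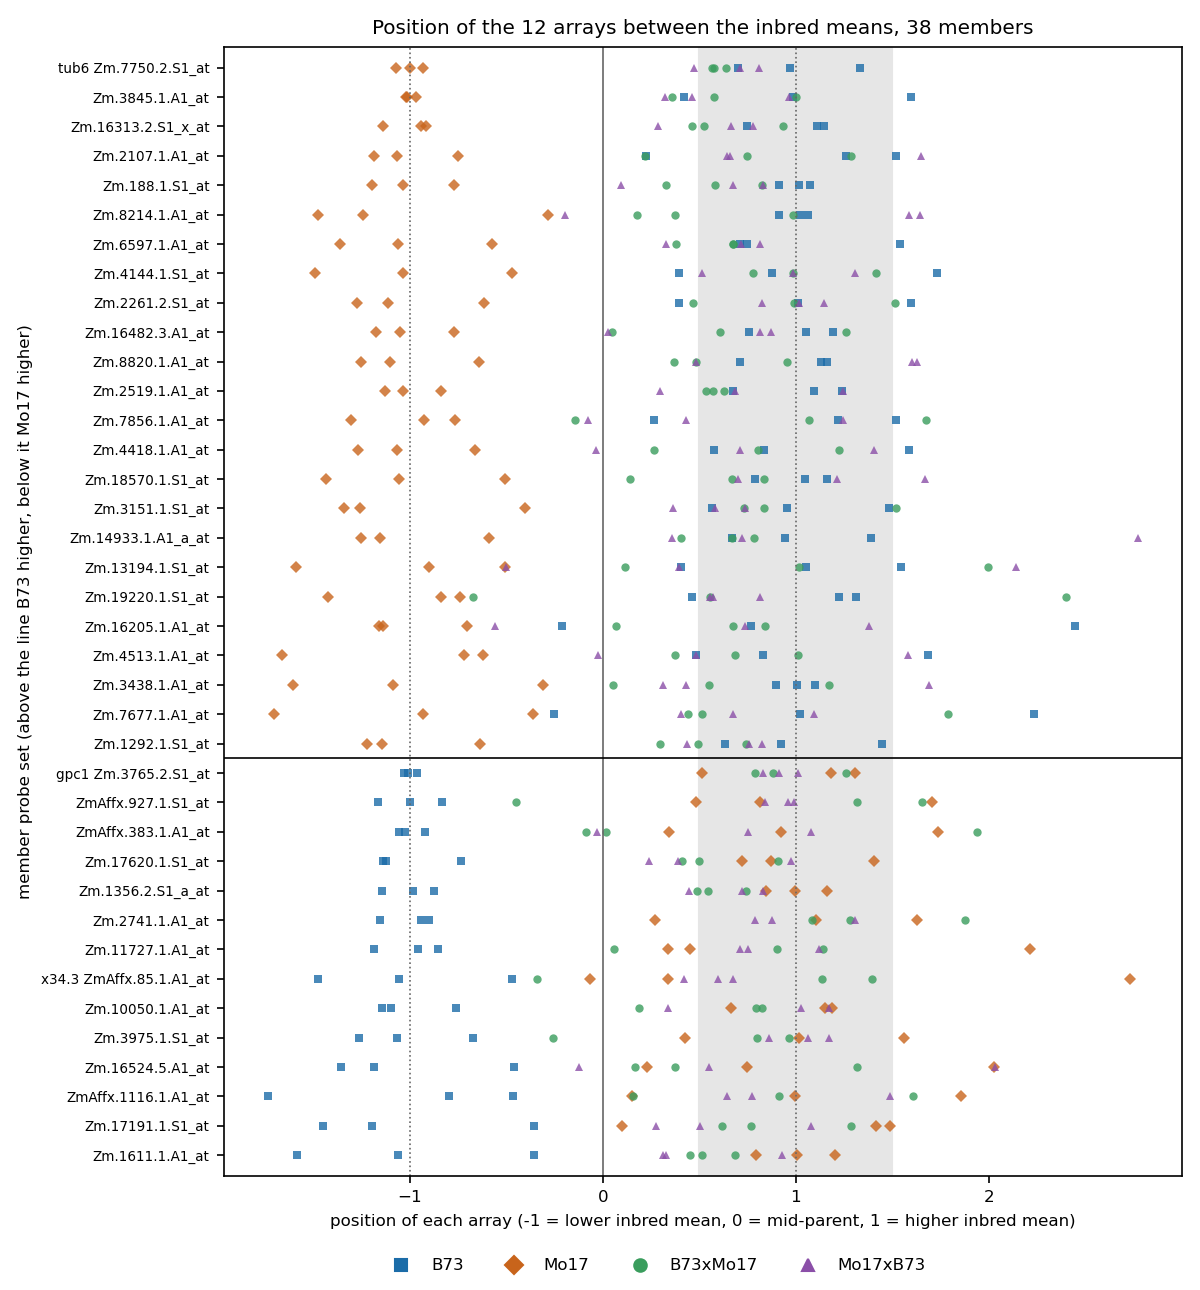
Position of each of the 12 arrays between the inbred means (horizontal axis, no unit: -1 is the mean of the lower inbred, 0 the mid-parent, 1 the mean of the higher inbred) for the 38 members (vertical axis, largest inbred ratio first). The upper 24 have B73 as the higher inbred and the lower 14 Mo17, symbols mark the groups, and the grey band marks the window for the cross means. Hybrid arrays of tub6 span 0.47 to 0.81, while those of Zm.14933.1.A1_a_at, picked after its values were seen, span 0.36 to 2.77.

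The scatter between replicates was set beside that of other probe sets that met the inbred criteria. The median within-group SD was 0.207 on the log2 scale for the 38 members, 0.167 for the 204 probe sets near the lower inbred, 0.150 for the 1393 with both crosses within 0.5 of the mid-parent and 0.164 for all 2381. In units of d/a, the SD over the 3 arrays of a cross had medians of 0.456, 0.327, 0.242 and 0.295 in the same order. The members were also the dimmest of these groups by median signal, at 248 against 389, 453 and 420, and the part of brightness in the scatter was not tested. No test was made of these differences.

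The position was then read in arrays that had no part in the choice. The same rule was applied to the 8 arrays of 2 collection dates, and d/a was computed from the 4 arrays of the third date. With the date of replicate 1 left out, 45 probe sets were chosen, and their median d/a on that date was 0.36 in B73xMo17 and 0.54 in Mo17xB73. With the date of replicate 2 left out, 50 were chosen, with medians of 0.40 and 0.34. With the date of replicate 3 left out, 52 were chosen, with medians of 0.43 and 0.49. Only 15 of the 45, 20 of the 50 and 21 of the 52 were members. These medians thus describe what the rule chooses from 8 arrays and are not a reading of the members alone. All probe sets that met the inbred criteria on the same 8 arrays had medians between -0.20 and -0.12 on the left-out dates. The chosen probe sets thus remained above the mid-parent by median on every left-out date, but lower than in the arrays that chose them. Both crosses reached 0.5 again at 12 of 45, 9 of 50 and 17 of 52, or 26.7%, 18.0% and 32.7%, against 6.60%, 3.49% and 5.55% of all that met the inbred criteria. Both crosses stood above the mid-parent at 48.9%, 56.0% and 65.4% of the chosen, against 21.0%, 19.5% and 20.7%. The inbreds changed order on the left-out date at 1, 1 and 2 of the chosen probe sets, which have no d/a there.

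**Figure D3:**
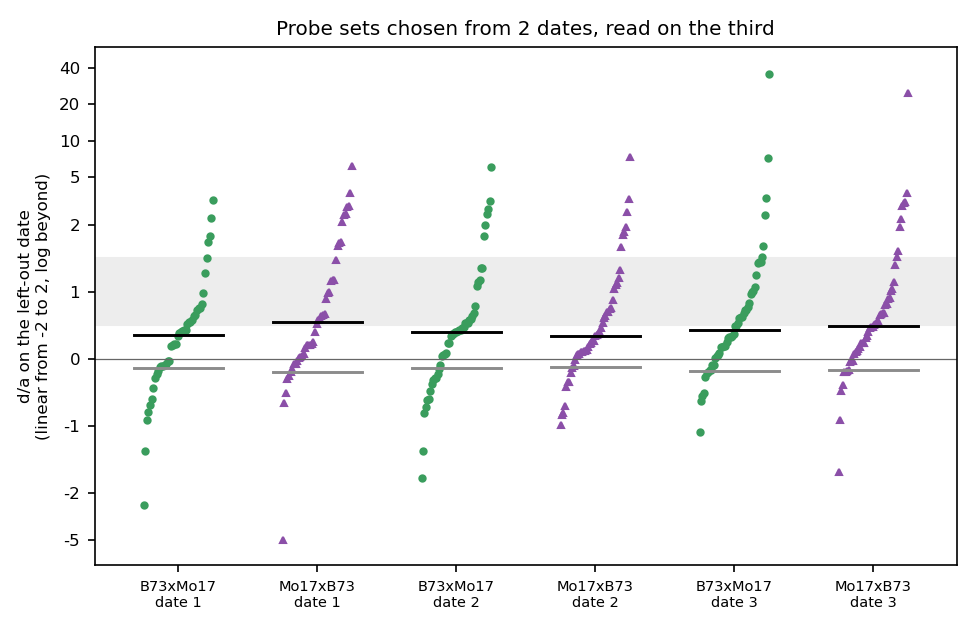
Position d/a on the left-out date (vertical axis, no unit, linear between -2 and 2 and logarithmic beyond) of probe sets chosen from the other 2 dates, by cross and date (horizontal axis, points sorted by value within each column). Black bars are medians of the chosen probe sets (0.34 to 0.54), grey bars medians of all that met the inbred criteria (-0.20 to -0.12), and the grey band is the window of the rule.

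Of the 38 members, 6 met the rule in each of the 3 pairs of dates, 12 in 2, 14 in 1 and 6 in none. The pairs, like the single dates below, are parts of the 12 arrays that chose the members. These counts therefore describe the choice and are no independent reading of it. The 6 that met the rule in each pair, singled out here after their values were seen, were the gpc1 probe set, Zm.10050.1.A1_at, Zm.1356.2.S1_a_at, Zm.16313.2.S1_x_at, Zm.2261.2.S1_at and Zm.4418.1.A1_at. Zm.2261.2.S1_at gave 165, 121 and 143 in B73, 66.9, 84.8 and 61.2 in Mo17, 143, 124 and 162 in B73xMo17, and 148, 137 and 144 in Mo17xB73. Its hybrids covered the same range as the B73 arrays, and d/a was 0.99 in both crosses. Zm.4418.1.A1_at gave 126, 159.8 and 135 in B73, 72.0, 65.3 and 85.5 in Mo17, 134, 116 and 148 in B73xMo17, and 131, 154 and 106 in Mo17xB73. The hybrids again reached into the B73 range from above every Mo17 array, with positions of 0.76 and 0.69. Date by date, however, both crosses of this probe set reached 0.5 on only 1 of 3 dates. B73xMo17 was at 0.076 on the date of replicate 2 and Mo17xB73 at -0.16 on that of replicate 3. Zm.10050.1.A1_at gave 99.5, 80.5 and 82.7 in B73, 196, 170.2 and 194 in Mo17, 178, 146 and 177 in B73xMo17, and 195, 154 and 188 in Mo17xB73. Here Mo17 was the higher inbred, and d/a was 0.60 and 0.84. Zm.16313.2.S1_x_at, brighter, gave 2494, 2878 and 2841 in B73, 675, 892 and 866 in Mo17, 2278, 2218 and 2675 in B73xMo17, and 2049.7, 2413 and 2525 in Mo17xB73. When each date was taken alone, both crosses were at 0.5 or more on all 3 dates at 3 members, gpc1, Zm.2261.2.S1_at and Zm.2741.1.A1_at, likewise singled out after their values were seen. For gpc1 the 6 values by date ran from 0.56 to 2.01. Zm.2741.1.A1_at gave 155, 159 and 135 in B73, 402, 271 and 352 in Mo17, 349, 368 and 426 in B73xMo17, and 371, 321 and 329 in Mo17xB73. Its B73xMo17 mean exceeded that of Mo17, at a d/a of 1.41, and the Mo17xB73 mean matched it, at 0.99.

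The difference between the crosses was the comparison that the rule did not make directly, although holding both crosses in 1 window limits how far apart they can lie. In limma's test none of the 38 members was called between B73xMo17 and Mo17xB73 at an adjusted p of 0.05, against 0.772% of all probe sets (136 of 17621), 3.02% of the 2381 that met the inbred criteria, 0.287% of the 1393 near the mid-parent and 0 of the 204 near the lower inbred. None had an unadjusted p below 0.05 either. The share was 10.6% of all probe sets, 8.83% of those near the mid-parent and 3.43% of the 204 near the lower inbred. Both of these groups are held in windows of the same width in d/a. For a given inbred ratio that width is narrowest near the higher inbred on the log2 scale, which the test uses. The choice thus limits calls among members the most, and the groups are not matched for this comparison. The absence of calls among members therefore says little about how alike the crosses are. The arrays of the crosses overlapped at every member, and failed to overlap at 16.4% of all probe sets, 14.5% of those near the mid-parent and 5.39% of those near the lower inbred. The choice limits this count in the same way. Log2 differences of B73xMo17 minus Mo17xB73 ran from -0.23 to 0.16. The median size was 0.05, which the shared window limits. The 95% interval stayed within a 1.5-fold difference either way at 33 members, and the widest reached 0.88. These intervals are centred on the same limited differences, so they do not show that the crosses are equal. For tub6 the difference was -0.05 (95% interval -0.43 to 0.33) and for gpc1 0.03 (-0.26 to 0.33). Zm.8820.1.A1_at, picked here for having the smallest p, gave 739.6, 654 and 634 in B73xMo17 and 862, 654 and 857 in Mo17xB73, with a log2 difference of -0.22 ± 0.12 (SE; limma adjusted p = 0.58).

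**Figure D4:**
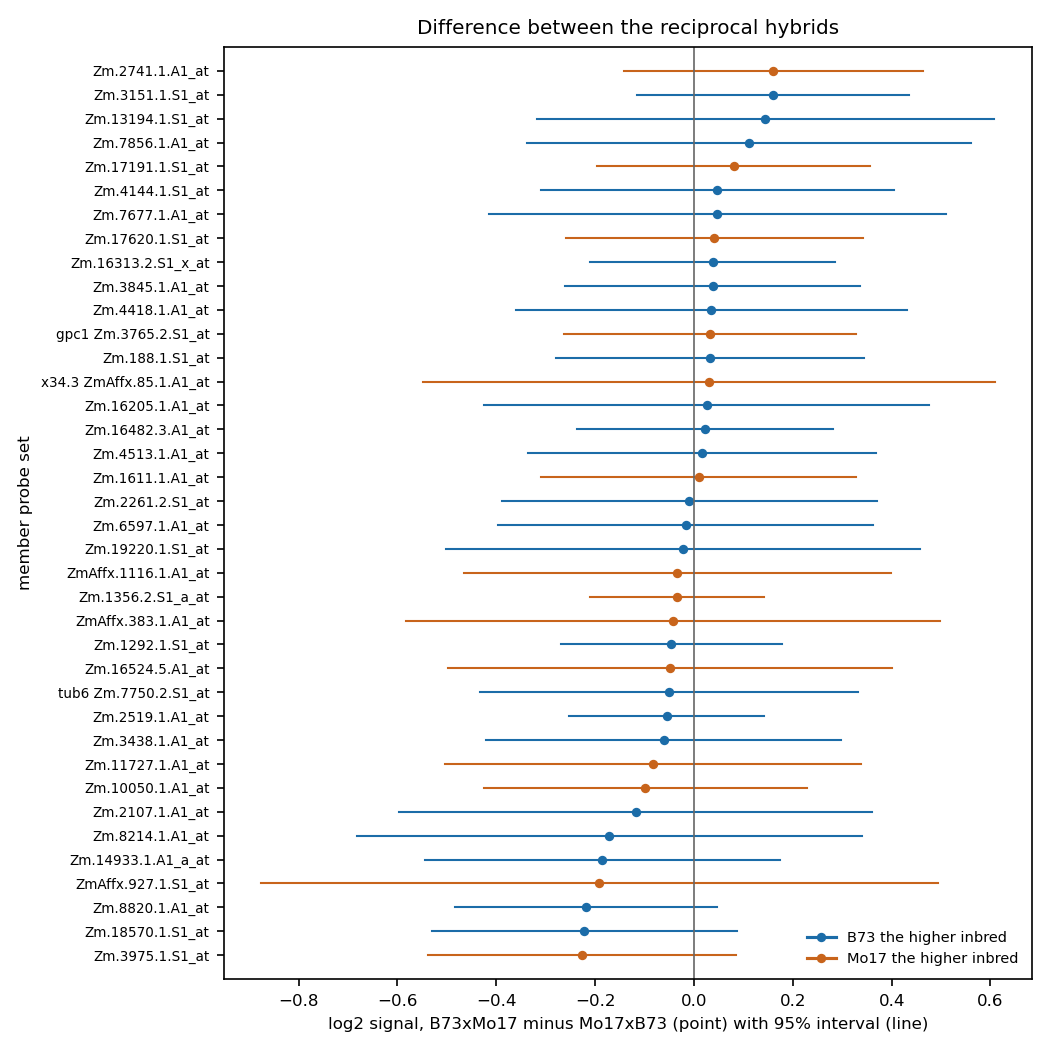
Log2 signal of B73xMo17 minus Mo17xB73 (horizontal axis) for each of the 38 members (vertical axis, sorted), with limma's 95% interval as a line and the higher inbred given by colour. The intervals of all 38 members include 0, and point values lie between -0.23 and 0.16. The choice of members limits these differences.

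The crosses were also compared by which parent bore the seed. The cross whose seed parent was the higher inbred had the higher mean at 20 of 38 members (52.6%), 13 of the 24 with B73 higher and 7 of the 14 with Mo17 higher. Among the probe sets near the mid-parent this was so at 909 of 1393 (65.3%), and among those near the lower inbred at 120 of 204 (58.8%). These shares were not tested. With quantile normalization the count for the same 38 members was again 20. Among the 79 probe sets which that scale chooses, the share was 65.8%, near that of the mid-parent group.

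Collection date left no call among the members. In limma's F test of date with genotype in the fit, 0 of 38 had an adjusted p below 0.05, against 0.108% of all probe sets (19 of 17621), and 5 of 38 had an unadjusted p below 0.05, against 10.8% of all. Both counts are near the share over all probe sets, so they say little about the members. The smallest p was that of Zm.16524.5.A1_at, with 144, 109 and 100.3 in B73, 264, 202 and 177 in Mo17, 230.1, 174 and 184 in B73xMo17, and 265, 160.1 and 193 in Mo17xB73 for replicates 1, 2 and 3. The arrays of replicate 1 were the highest in every group, and the log2 differences from them were -0.48 for replicate 2 and -0.47 for replicate 3 (limma adjusted p = 0.169). Zm.16313.2.S1_x_at (limma adjusted p = 0.241), ZmAffx.1116.1.A1_at (0.243) and Zm.1356.2.S1_a_at (0.402) came next.

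Related probe sets were looked up for each member. In all, 12 members had 33, of which 6 were for the same gene in the annotation. The other 27 were related by the cluster number in the probe set ID, which alone does not show that they read the same transcript. Among these, Zm.188.1.S1_s_at, Zm.16482.3.A1_x_at and Zm.14933.1.A1_x_at also share the subcluster number with their members, as the tub6 probe sets of 1 sequence record do. Of the 33, 19 were at 50 or more on all arrays. At 15 of these 19 the inbred ratio was under 1.5, and 11 had the same inbred higher as the member. Only 4 met the inbred criteria, 3 of them in the same direction, and both crosses were at 0.5 or more at 0 of the 4. For gpc1 the other probe set, Zm.3765.1.S1_s_at, gave 9032 to 12392 in B73, 11550.0 to 13989.8 in Mo17, 10695 to 11639 in B73xMo17 and 11767 to 12282 in Mo17xB73. Its inbred arrays overlapped, with a ratio of 1.20, while the member probe set differed 6.17-fold. The suffix s marks probes shared by several transcripts, so this signal may not be that of gpc1 alone.

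The tub6 probe sets disagreed in direction as well. Zm.7750.2.S1_x_at, designed against the same sequence record as the member, was higher in B73 by a ratio of 1.98 with positions of 0.14 and 0.27, close to the mid-parent. Zm.7750.2.S1_a_at, from the same record again, had a ratio of 1.18. Zm.7750.1.S1_at was higher in Mo17 by a ratio of 1.76, with means of 1884 in B73 and 3316 in Mo17 and positions of 0.15 and -0.22. The suffix x marks probe sets with probes that may also match other transcripts, and the suffix a those that match several transcripts of the same gene. Tubulins form a family of similar sequences, so it is uncertain which tubulin genes each signal holds. The other 2 probe sets of x34.3 were too dim for the rule, with signals of 4.50 to 69.8 for Zm.15663.1.S1_at and 2.37 to 19.9 for ZmAffx.85.1.S1_at, and no position is given for them. Zm.16313.1.S1_a_at, which shares its cluster number with Zm.16313.2.S1_x_at, was 1.58-fold higher in B73 with positions of 0.58 and 0.39. It came nearest to its member among the related probe sets that met the inbred criteria. Zm.16482.3.A1_x_at also met them, with the same inbred higher as its member, a ratio of 1.55 and positions of -0.11 and 0.11. Zm.188.1.S1_s_at went the other way from Zm.188.1.S1_at, with means of 695 in B73 and 1040 in Mo17. Zm.1356.1.A1_at was higher in Mo17 like Zm.1356.2.S1_a_at, but by a ratio of 1.49 against 2.48.

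The mirror window, with both crosses between -1.5 and -0.5, held 204 probe sets against the 38 members. The 2 sets also differed in which inbred was higher: B73 at 24 of 38 members (63.2%) and at 44 of 204 probe sets near the lower inbred (21.6%), against 47.8% of the 2381 that met the inbred criteria. Put together by level, 184 probe sets had both hybrids near the level of B73 and 58 near that of Mo17. These counts describe the choice and were not tested. They depend on the scale: quantile normalization gave 79 near the higher and 133 near the lower inbred, and 141 near the level of B73 against 71 near that of Mo17. On unscaled signals the counts were 32, 143, 126 and 49 in this order. Median d/a over all probe sets that met the inbred criteria was -0.16 in B73xMo17 and -0.17 in Mo17xB73 after scaling to the median, and -0.06 and -0.07 after quantile normalization. On unscaled signals it was 0.0056 and -0.32, so the sign turned for B73xMo17.

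**Figure D5:**
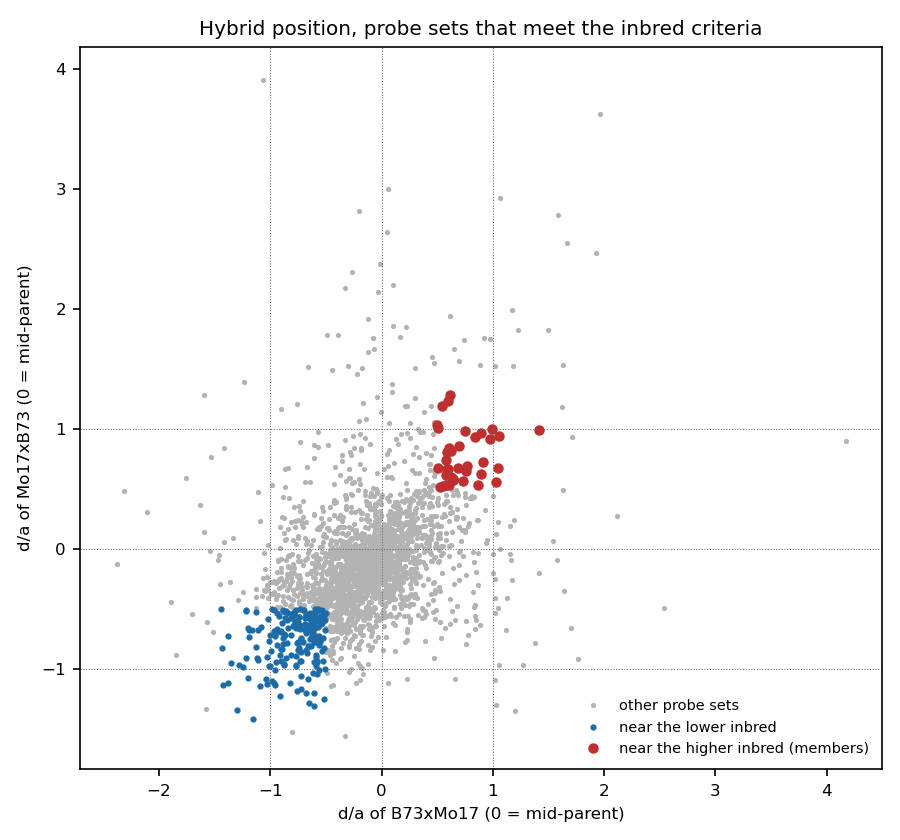
Position d/a of B73xMo17 (horizontal axis, no unit) and Mo17xB73 (vertical axis, no unit) for the 2381 probe sets that met the inbred criteria. The 38 members (red) lie at 0.5 to 1.5 on both axes and the 204 probe sets near the lower inbred (blue) at -1.5 to -0.5, and most points lie around and slightly below 0.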

How the data were processed

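The deposited table holds linear intensity values, 1 signal per probe set and array, made by the authors with MAS5 per the submitters' processing notes, which give no version. Whether the authors normalized across arrays is not given in the sources used here, and array medians differed. The 113 control probe sets were left out. Each array was scaled to a common median over the other 17621. Detection calls were not used here, so levels near 50 may include background. Precision is limited by having 3 arrays a group.

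The fit was made on log2 signals of all 12 arrays, with 1 mean per group, in limma 3.58.1 under R 4.3.3 (lmFit, eBayes with an intensity trend), and with two-sided p-values adjusted by Benjamini-Hochberg over all 17621 probe sets. The scale of the rule was kept for the tests so that values and tests match, with quantile normalization as an alternative. The fit was tested on simulated data. Per the labels the replicate number marks a shared collection date. Deviations of same-numbered arrays correlated between -0.10 and 0.06 over 18 pairs. Genes came from the platform annotation: 1452 probe sets had 1 gene, 1 had several and 16168 are unnamed here. Of 1108 genes, 1060 matched RefSeq (assembly Zm-B73-REFERENCE-NAM-5.0), used for names only. By rule the text names members with a gene, the 5 largest inbred ratios each way, the 4 smallest p-values for date and the probe sets nearest to the limit of 0.5. The related probe sets of members and Zm.2519.1.A1_at, Zm.2261.2.S1_at, Zm.4418.1.A1_at, Zm.10050.1.A1_at, Zm.2741.1.A1_at, Zm.8820.1.A1_at, Zm.14933.1.A1_a_at, glb2, betl4, ESR1 and dzs18 were named after their values were seen. Members, lists and tests were chosen with earlier results of these data known. Sequences were not used here.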

Additional observations from a re-analysis of the deposited data

How the results depend on the processing

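The number of members depended on the scale and limits of the rule. It was 79 with quantile normalization (32 of the 38 kept), 152 with d/a on the log2 scale, which lowers the mid-parent by construction (38 kept), 21 with a minimum of 100, 19 with an inbred ratio of 2 and 59 without an upper limit. A minimum of 25 gave 54 and unscaled signals 32 (16 kept). Leaving out 1 array at a time gave 29 (without B73 replicate 1) to 54 (without B73 replicate 3), with 23 to 32 of the members kept. The mean of the 3 median positions on left-out dates was 0.42, and 0.48 with quantile normalization. It was 0.48 for the date of replicate 3 alone. Members called between the crosses or by date stayed at 0 under every alternative run, including the fit with the replicate number as a block for the crosses, where 0 were called and the smallest adjusted p was 0.494, each array left out in turn (0 to 0) and, for date, each date left out. Over all probe sets, calls between the crosses were 136 as reported, 12 without the eBayes trend, 42 on unscaled signals, 153 with quantile normalization, 166 with the block and 45 to 134 with 1 array left out. Calls by date were 19 as reported, 7 with quantile normalization, 29 on unscaled signals, 35 with a filter on dim probe sets, 0 without the trend and 0 to 24 with 1 array left out. With calls this rare over all probe sets, and the crosses limited by the choice, counts of 0 among 38 members say little. The sum for the storage list was higher in B73 than in Mo17 by 13505, and by 1521 without dzs18. This alternative and those for the lower inbred and for levels near B73 or Mo17 were chosen after seeing the data. Of 15 members named by rule, 14 stayed in the window with quantile normalization.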
